A study of Mus musculus with 11 samples.

Results

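The sonication pull-down of GFP-tagged Smchd1 was described from its peak list, which holds 2196 of the 5036 peaks of the series, every peak of the list being taken as a member. The other 2840 peaks come from the companion experiment with micrococcal nuclease (MNase). The list rests on 6 libraries from female neural stem cell lines of the C57BL/6 strain, derived from E14.5 embryos and passaged for up to 20 passages. Of these, 2 were from cells homozygous for the Smchd1 GFP fusion knock-in allele and 2 from wild-type cells, which have no tag and were pulled down with the same antibody to GFP, and 2 were whole cell extract with no genotype given in the labels. The knock-in allele puts GFP on the endogenous protein, so no extra copy was added. All chromatin was cross-linked with formaldehyde and sonicated for 30 min in non-ionic detergent. The labels name this 1 list for every library, and the sources used here do not say how the wild-type and extract libraries entered the calls. No peak therefore has a value per library, the depth is unknown, and knock-in and untagged cells could not be compared with a test. The results below describe where the listed peaks lie. Neural identity could not be checked against markers, since no expression was measured.

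Smchd1 is a non-canonical member of the SMC family of chromosome proteins, which shape chromatin by holding DNA segments together. It is recruited late to the inactive X, where it is needed to keep many genes silent and to keep the chromosome from folding like its active partner. On autosomes it is known for silencing at imprinted genes and clustered gene families. Hox clusters are among the gene families it is known to act on.

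Most peaks were short and isolated, and the exceptions fell into separate kinds. Of the 2196 peaks, 1463 had the smallest width of the list, 300 bp, and only 25 were wider than 900 bp. The 549 peaks on X were mostly narrow too, with 41.9% wider than 300 bp, but more of them lay in runs. The 1646 autosomal peaks were sparse, with 30.5% wider than 300 bp, and the widest lay mostly at developmental genes. A single peak lay on Y.

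A few promoters under autosomal peaks of different widths show the range of their sequences. RefSeq promoters of the GRCm38.p6 build, each from 250 bases before to 50 after a gene's start, were searched for CG, the dinucleotide that vertebrate DNA methylation targets and that is dense in CpG islands. The promoters below were chosen after their values were seen. The first 4 show CG-rich starts of developmental and neural genes, and the last 2 show starts with fewer CG. Every CG is in capitals, and each is given 5′ to 3′ on the gene's own strand.

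Pcsk2: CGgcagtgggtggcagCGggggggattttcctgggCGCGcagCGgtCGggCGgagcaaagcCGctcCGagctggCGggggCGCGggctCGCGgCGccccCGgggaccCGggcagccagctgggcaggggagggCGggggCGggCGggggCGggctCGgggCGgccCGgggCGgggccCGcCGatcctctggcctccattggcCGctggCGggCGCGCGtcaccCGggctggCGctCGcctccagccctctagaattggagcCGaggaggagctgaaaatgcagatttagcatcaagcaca

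Msx1: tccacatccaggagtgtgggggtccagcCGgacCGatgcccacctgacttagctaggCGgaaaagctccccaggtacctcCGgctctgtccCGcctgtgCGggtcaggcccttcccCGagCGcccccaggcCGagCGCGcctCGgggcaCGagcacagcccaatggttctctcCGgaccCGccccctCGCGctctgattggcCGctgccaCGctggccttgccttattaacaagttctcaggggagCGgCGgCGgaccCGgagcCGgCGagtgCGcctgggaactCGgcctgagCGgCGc

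Hoxa5: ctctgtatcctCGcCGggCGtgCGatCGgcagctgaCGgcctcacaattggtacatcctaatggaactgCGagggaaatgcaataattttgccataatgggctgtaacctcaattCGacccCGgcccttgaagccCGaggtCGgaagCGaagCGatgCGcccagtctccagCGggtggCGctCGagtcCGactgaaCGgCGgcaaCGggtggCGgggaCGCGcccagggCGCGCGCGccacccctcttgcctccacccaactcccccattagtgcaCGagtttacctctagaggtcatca

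Lrfn5: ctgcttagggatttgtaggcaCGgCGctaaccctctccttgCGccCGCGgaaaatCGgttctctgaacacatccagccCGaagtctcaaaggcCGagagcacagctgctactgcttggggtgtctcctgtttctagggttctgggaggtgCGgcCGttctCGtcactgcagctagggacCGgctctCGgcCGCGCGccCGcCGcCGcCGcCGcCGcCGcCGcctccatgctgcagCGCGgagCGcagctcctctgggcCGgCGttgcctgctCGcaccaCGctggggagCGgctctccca

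Zpbp: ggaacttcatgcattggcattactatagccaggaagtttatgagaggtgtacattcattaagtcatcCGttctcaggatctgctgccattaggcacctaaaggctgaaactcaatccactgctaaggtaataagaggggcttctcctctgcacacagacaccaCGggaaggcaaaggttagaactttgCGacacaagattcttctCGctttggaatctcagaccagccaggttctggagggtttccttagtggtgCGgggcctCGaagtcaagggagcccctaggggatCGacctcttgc

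Ccr1: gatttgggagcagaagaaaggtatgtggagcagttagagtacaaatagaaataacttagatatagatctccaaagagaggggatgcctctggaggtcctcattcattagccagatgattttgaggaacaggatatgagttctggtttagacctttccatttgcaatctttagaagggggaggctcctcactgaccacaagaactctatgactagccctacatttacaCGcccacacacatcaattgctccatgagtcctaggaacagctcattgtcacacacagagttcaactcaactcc

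Pcsk2, which encodes a convertase that cleaves neuropeptide precursors, has 36 CG in its window at chr2:143545883-143546182 (plus strand), which lay wholly inside a peak of 1800 bp. Msx1, a homeobox gene of limb, tooth and neural crest, has 29 at chr5:37824536-37824835 (minus strand), inside a peak of 1200 bp. The Hoxa5 window at chr6:52204538-52204837 (minus strand) also has 29 and lay inside a peak of 1200 bp. Lrfn5, a synaptic adhesion gene, has 32 at chr12:61522917-61523216 (plus strand) under a peak of 450 bp. By contrast Zpbp, a gene of the sperm acrosome, has 7 at chr11:11462370-11462669 (minus strand) under a peak of 1050 bp. That count is also the median over all promoter windows. Ccr1, a chemokine receptor gene of blood cells, has 1 at chr9:123968643-123968942 (minus strand), of which the last 58 bases were in a 300 bp peak.

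Few promoter windows touched a peak. Of 32851 promoter windows in the RefSeq table, 25 windows of 21 genes (0.0761%) touched a sonication peak. Their median was 20 CG, against 7 over all windows. At least 20 CG were found in 13 of the 25 (52.0%) and in 26.5% of all windows. Among the 19 windows under peaks wider than 300 bp, 63.2% had at least 20 CG, and 1 of the 6 under peaks of 300 bp did. Those 6 windows belong to only 4 genes, since 3 are nearly the same start of the non-coding gene 4930405D01Rik. The window with at least 20 CG there is that of Elavl4, a neuronal RNA-binding protein gene, and only 11 of its bases were covered. Outside the Hox clusters, 6 of 16 windows (37.5%) reached 20 CG and the median was 4. By peak width, 4 of 1463 peaks of 300 bp (0.273%) and 8 of 25 above 900 bp (32.0%) touched a promoter window. How many would do so from the bases covered alone was not tested. The table has no window on chromosome 18, so the 74 peaks there were not scored and count here as touching none.

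Spacing set X apart from the autosomes. A run was defined as peaks each no more than 100 kb from the next. On X, 321 of 549 peaks (58.5%, 95% Wilson interval 54.3% to 62.5%) lay in a run of 2 or more. On the autosomes 305 of 1646 (18.5%, 16.7% to 20.5%) did, and no autosome passed 24.2%, the value of chromosome 9. Since X also has more peaks per Mb (3.27 against 0.685), neighbours would fall closer there at even spacing too, and the difference was not tested. The gap between neighbours had a median of 149 kb on X, with quartiles at 56.5 and 345 kb. On the autosomes the median was 854 kb and the quartiles 322 and 1787 kb. Intervals here and below cover counting error only, and peaks of a run are not independent.

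**Figure D1:**
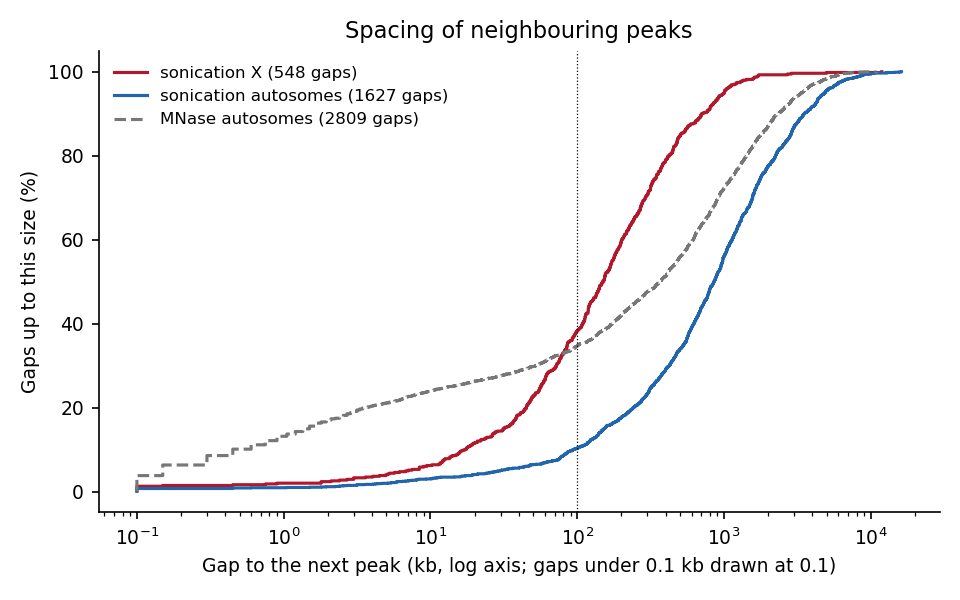
Cumulative share of gaps (percent) against the distance to the next peak in kb on a log axis, for sonication peaks on X, sonication peaks on the autosomes and MNase peaks on the autosomes; the dotted line marks 100 kb. The median gap is 149 kb on X and 854 kb for autosomal sonication peaks, and the MNase curve starts highest, with 671 gaps of 10 kb or less.

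Counts per window also covered a wider range on X. In windows of 1 Mb, X held 0 to 17 peaks with a median of 3, and the variance over windows was 3.04 times the mean. Autosomal windows held 0 to 9 with a ratio of 1.20. With more peaks per Mb on X (3.27 against 0.685), the largest counts and this ratio can be higher at the same relative unevenness. Whether X peaks are less evenly spread was therefore not tested. No peak was found in 27 of 167 X windows (16.2%) and in 1290 of 2394 autosomal ones (53.9%). Each of the 12 windows with 10 or more peaks was on X. The fullest, with 17, held Eda and the meiosis gene Tex11. Next came a window of 14 with Tbl1x, a corepressor subunit gene.

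Runs of 3 or more numbered 50 on X, with 199 peaks, and 18 on the autosomes, with 67. Of those on X, 45 overlapped a broad domain and 33 spanned or touched a coding gene. The run with most peaks, 9 over 177 kb from 100131601 to 100308750, lay inside Eda, the ectodysplasin gene of hair, tooth and gland development. A run of 7 over 311 kb had no coding gene, the nearest being 227 kb away. A run of 6 over 227 kb touched Sh3bgrl and Gm6377. Runs of 5 lay at Tex11, at the cilium gene Efhc2, and across Asb12, Zc4h2 and Zc3h12b. Runs occurred both inside genes and in gene-free stretches, 17 of the 50 having no coding gene in their span. The widest peak was 600 bp in the Eda run and 750 bp in the run of 7.

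Autosomal runs were led by the Hox clusters, whose genes encode the homeobox factors of the body axis. HoxA had a run of 8 peaks over 53.5 kb, HoxB and HoxD runs of 6 over 69.0 and 51.1 kb, and HoxC a run of 4 over 51.1 kb. The HoxD run began at Evx2, the homeobox gene next to the cluster. All 23 peaks within 5 kb of a cluster were at least 600 bp wide. The other 14 runs held 3 or 4 peaks. One lay at Nr2f2, an orphan nuclear receptor gene of vessels and interneurons, with a widest peak of 1200 bp. Others lay inside Nrxn3 and Negr1, both neuronal surface protein genes, with no peak wider than 300 bp in either run. A run of 4 peaks of 300 bp lay 188 kb from Ccnh, with no coding gene in its span.

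Peaks that adjoined with no gap were found 7 times on X and 12 times on the autosomes. The autosomal ones included a pair at Xkr4, a phospholipid scramblase family gene, of 1050 and 900 bp. None of them lay in a Hox cluster. In the MNase list 107 autosomal neighbours adjoined.

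Empty stretches marked the other extreme. The longest on X, 11.9 Mb from 24246601 to 36119250, held 51 coding genes with a median length of 1.96 kb, of which 29 carry predicted names. The next, 4.99 Mb from 122194051 to 127185000, held 10 coding genes. The longest on an autosome, 16.2 Mb from 20046151 to 36216150 on chromosome 7, was gene-dense instead, with 410 coding genes or 25.4 per Mb. How much of these stretches can be covered by uniquely placed reads was not tested.

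Gene length went with peaks on both kinds of chromosome. A coding gene was counted when a peak lay within 5 kb of its span. Of 21775 coding genes, 736 had such a peak, a background of 3.38%. It was 13.6% on X (131 of 963) and 2.94% on the autosomes (605 of 20556). Genes with a peak had a median length of 113 kb (quartiles 39.4 and 305 kb), and the others on the autosomes and X one of 16.7 kb (5.69 and 41.9 kb). On X the medians were 101 and 11.1 kb, and on the autosomes 116 and 16.9 kb. A longer gene offers more bases to a peak, so these medians alone do not show a preference. Most genes with a peak had a single one (608), 90 had 2 and 38 had 3 or more, of which 21 were on X. With other rules the backgrounds were 2.92% of all coding genes for a peak in the span itself (11.1% on X, 2.57% on the autosomes) and 7.84% for one within 50 kb (32.8% and 6.76%). For a peak wider than 300 bp within 5 kb they were 1.35% (6.75% and 1.12%). For an MNase peak within 5 kb they were 5.28% (0.415% and 5.58%).

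Per Mb of gene span, longer X genes still held more peaks. Those overlapping the span came to 2.33 per Mb (95% exact Poisson interval 1.16 to 4.17) in X genes of 10 to 30 kb and 3.20 (2.20 to 4.49) in those of 30 to 100 kb. They came to 4.50 (3.47 to 5.75) at 100 to 300 kb and 5.38 (4.27 to 6.68) over 300 kb. Without Dmd, Eda and Il1rapl1, left out because they held most peaks (35 of 81), the last class had 4.23 per Mb (3.10 to 5.64), so that the step above the class of 100 to 300 kb rests on these genes. The autosomal classes from 10 kb up read 0.337, 0.547, 0.601 and 0.788 per Mb. Autosomal genes under 10 kb had 0.979 per Mb with Hox genes and 0.426 (0.227 to 0.729) without them. The intervals of neighbouring classes overlapped on X, and no test of the trend was made. Overlapping genes share peaks in these counts.

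**Figure D2:**
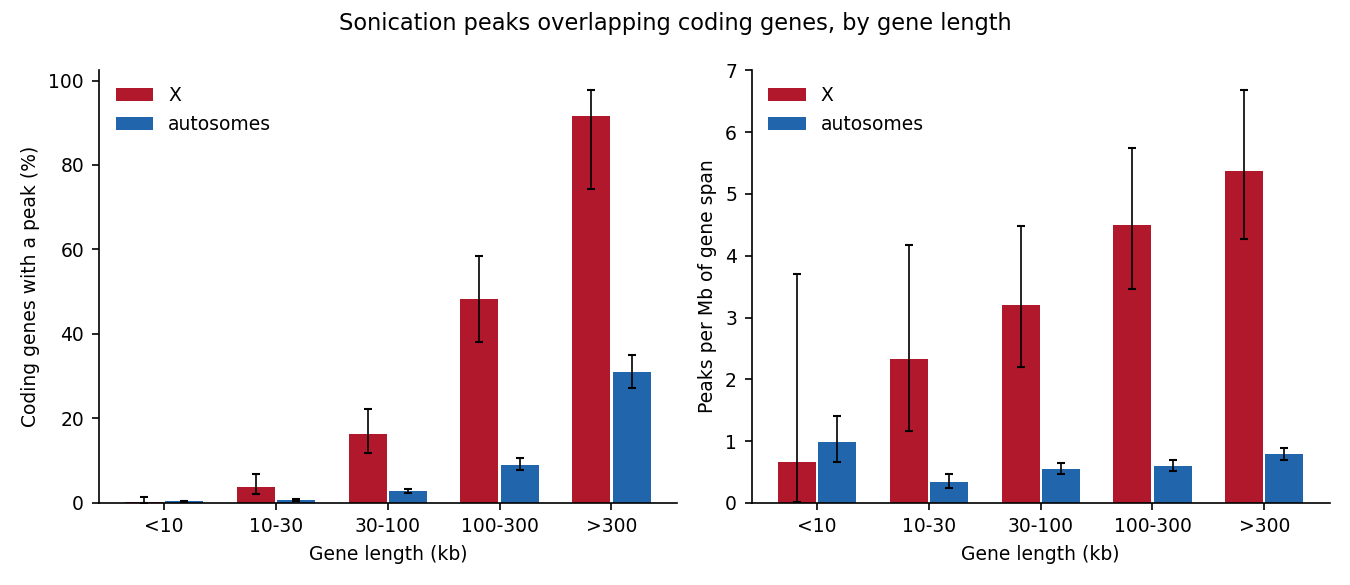
Coding genes overlapped by a sonication peak (left, percent with 95% Wilson intervals) and peaks per Mb of gene span (right, with 95% exact Poisson intervals) in 5 classes of gene length in kb, for X (red) and the autosomes (blue). The share rises with length to 91.7% of X genes and 31.0% of autosomal genes over 300 kb, and peaks per Mb on X rise from 2.33 at 10 to 30 kb to 5.38 over 300 kb.

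Nearly every long X gene was hit. Of the 24 X genes over 300 kb, 22 had a peak in their span (91.7%, 74.2% to 97.7%), the exceptions being Arhgap6 and 3830403N18Rik. At 100 to 300 kb, 43 of 89 did (48.3%). On the autosomes the same classes gave 165 of 532 (31.0%) and 161 of 1779 (9.05%). Among long X genes the density varied widely. Eda had 21.2 peaks per Mb of span and Pola1, the DNA polymerase alpha gene, 12.2. Dmd, the dystrophin gene, had 7.53 and Fgf13, a gene of neuronal migration and sodium channel control, 7.64. At the low end were Tenm1, a teneurin gene of synaptic partner matching, with 1.11, and Pcdh11x, a protocadherin gene, with 1.61, each from 1 peak.

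Some shorter X genes held 3 peaks or more. On the scale of peaks per Mb of span plus 5 kb on each side, Eda had 20.7. Atrx, a chromatin remodeller gene of 132 kb, had 21.2 and Zdhhc15, a palmitoyl transferase gene, 20.8, each from 3 peaks. Arhgap36, of 51.9 kb, had 48.5, with 1 of its 3 peaks in its span. Tbl1x, of 153 kb, had 18.4, and Tex11, of 221 kb, 17.3. Hdac8, a deacetylase gene acting on cohesin, had 13 from 3 peaks. The widest peak at these genes other than Eda was 750 bp, at Tbl1x. None of these 7 genes had an MNase peak within 5 kb, but only 4 of all 963 X coding genes (0.415%) did.

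Among autosomal genes some of the longest had no peak. Of the 20 longest autosomal genes, from 1302 to 2271 kb, 15 had a peak and 9 had 2 or more, against 19 and 14 of the 20 longest on X, whose lengths reach lower (326 to 2390 kb). Ptprd, the longest at 2271 kb and a receptor phosphatase of synapses, had 2 peaks. Lsamp, a neuronal adhesion gene of 2197 kb, had 2 and Lrp1b, of 2058 kb, had 1. Cntnap2, at 2241 kb, and Macrod2, at 1998 kb, had 0. Gpc5, a glypican gene of 1433 kb, had 5. Dock4, a Rac activator gene, had 3 in only 401 kb, and Slit2, an axon guidance cue, 3 in 326 kb. The other autosomal genes with 3 peaks outside the Hox clusters included Pde4d, a cAMP phosphodiesterase gene, and Pcdh9 and Negr1, both of cell adhesion. Among them were also Pard3b, of cell polarity, and Ppfia2, of the presynaptic zone. Immp2l, Fhit, Thsd7b and Unc5d had 3 as well, and Adgre4 had 3 within 5 kb of its 104 kb span.

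The share of peaks inside genes lay above the share of bases that genes cover on X and below it on the autosomes. On X, 188 of 549 peaks overlapped a coding gene (34.2%, 30.4% to 38.3%), where coding genes cover 27.1% of the length. On the autosomes 612 of 1646 did (37.2%, 34.9% to 39.5%), where they cover 40.9%. Peaks outside genes lay far from them, at a median of 82.6 kb on X and 121 kb on the autosomes, and 170 autosomal peaks (10.3%) were over 500 kb from any coding gene. In windows of 1 Mb without a coding gene the autosomes had 0.829 peaks on average (0.724 to 0.945), and with 20 or more coding genes 0.440 (0.364 to 0.527). On X the averages were 2.29 (1.63 to 3.14) and 2.14 (1.20 to 3.53), with 4.10 (3.28 to 5.06) at 10 to 19 genes. Autosomal means were lower in gene-rich windows, and those on X gave no such order.

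Autosomal sonication peaks lay near gene ends less often than autosomal MNase peaks. Within 5 kb of either end of a coding gene lay 141 of 1646 sonication peaks (8.57%) and 1011 of 2828 MNase peaks (35.7%). The difference was -27.2 percentage points (95% interval -29.4 to -24.9; Fisher's exact test, two-sided, adjusted p = 6.75e-100 over 3 comparisons). Inside coding genes lay 37.2% and 46.4%, a difference of -9.21 points (-12.2 to -6.22; Fisher's exact test, adjusted p = 1.80e-09). In runs lay 18.5% and 47.9%, a difference of -29.4 points (-32.0 to -26.7; Fisher's exact test, adjusted p = 1.46e-90). The MNase list is denser on the autosomes (1.18 against 0.685 peaks per Mb), so its neighbours would fall closer at even spacing too. The test of runs does not separate density from clustering. The directions held without the Hox clusters. Peaks are not biological replicates and those of a run share their source, so these p-values are too small. The MNase experiment also used male cells, so the effects of sex and of the way chromatin was cut cannot be told apart.

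Hox genes had the highest share of any class counted. Of the 39 Hox genes, 25 had a sonication peak within 5 kb (64.1%), beside the 3.38% of all coding genes, and each of the 25 had one wider than 300 bp. These genes are short, with a median of 3.74 kb, and share 22 peaks, so they are not separate sites. Hoxa10 had 4 peaks and Hoxd8, an axial patterning gene of only 3.32 kb, had 3. Of the other homeobox genes 4 of 149 had a peak (2.68%), Irx2, Msx1, Evx2 and Cux2, and their 4 peaks were all wide, from 750 to 1350 bp. For other developmental transcription factors the count was 4 of 108 (3.70%), with Nr2f2 (1200 bp) and the neural crest factor Tfap2a (900 bp) at wide peaks and Tfap2b and Tbx22 at peaks of 300 bp. These classes are short, with medians of 7.36 and 8.20 kb against 17.4 kb for coding genes of X and the autosomes together, so the 3.38% over all lengths is not their match. Among autosomal genes under 10 kb, 3 of 85 other homeobox genes had a peak within 5 kb (3.53%, 1.21% to 9.87%), beside 40 of 7245 coding genes other than Hox genes (0.552%). Among those of 10 to 30 kb, 3 of 19 other developmental factors did (15.8%, 5.52% to 37.6%), beside 57 of 6096 (0.935%). No homeobox gene outside the Hox clusters did at 10 to 30 kb (0 of 32), and no other developmental factor did under 10 kb (0 of 57). These counts are small and were not tested. In the MNase list 32.9% and 32.4% of these same classes had a peak, beside 5.28% of all coding genes.

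**Figure D3:**
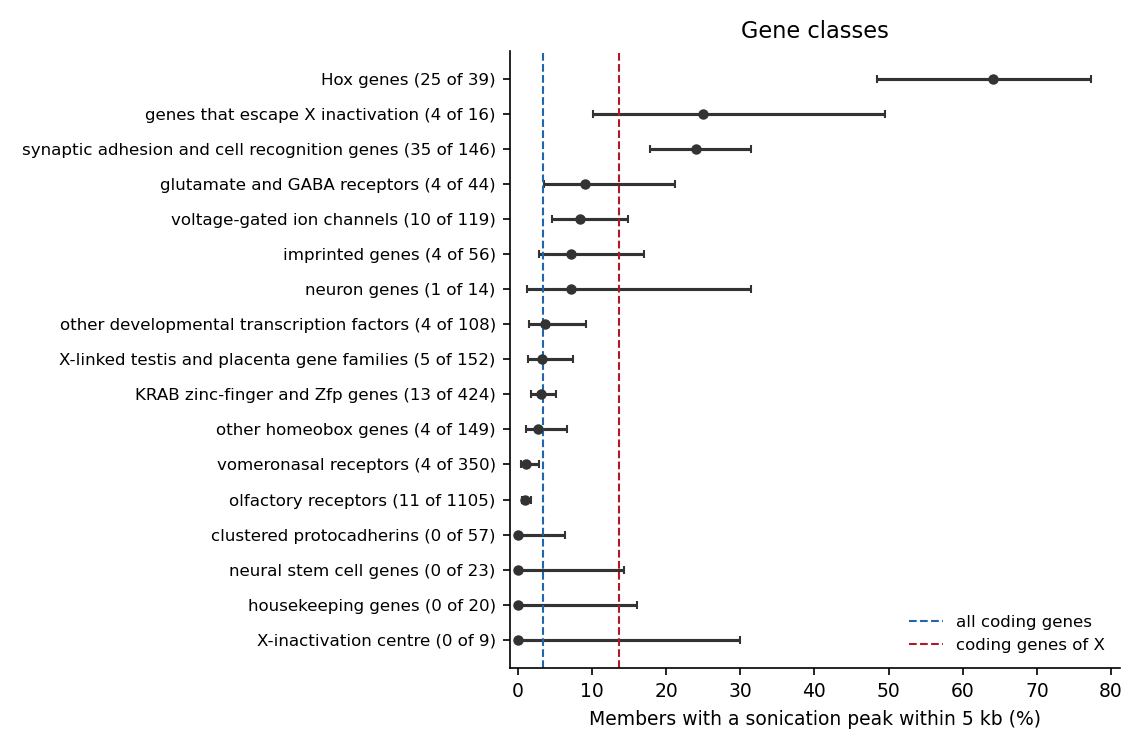
Share of each gene class with a sonication peak within 5 kb (points, percent, with 95% Wilson intervals), with the number of members in brackets and dashed lines at the share of all coding genes (3.38%) and of X coding genes (13.6%). Hox genes stand at 64.1% and synaptic adhesion genes at 24.0%, and the lines are shares over all gene lengths, so they are no match for classes of short genes such as other homeobox genes (2.68%).

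Genes of synaptic adhesion and cell recognition, which encode the surface proteins by which neurons find and hold partners, had a peak at 35 of 146 members (24.0%). They held 75 peaks in all, and 18 of the 35 genes had one wider than 300 bp. Il1rapl1 and Il1rapl2 on X had 8 and 4, Gpc5 and Nrxn3 had 5 each, Csmd1 had 4 and the glypican gene Gpc3 on X had 3. The netrin receptor gene Unc5d had 3. These genes are long, with a median of 158 kb, or 1023 kb for those with a peak. Among autosomal members over 300 kb, 25 of 57 had a peak in their span (43.9%, 31.8% to 56.7%) and 0.996 peaks per Mb, beside 31.0% and 0.788 per Mb for all autosomal genes of that length. The lower end of the class's interval is close to the share of those genes, which include the class itself. A short member, the protocadherin gene Pcdh8 of 4.54 kb, had 1 peak of 900 bp.

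Ion channels and receptors of neurons came closer to the background. The class of voltage-gated channel genes, which also takes in other potassium channels such as Kcnk9, Kcnn2 and Kcnt2, had a peak at 10 of 119 (8.40%). Among them were the calcium channel subunit genes Cacna2d3 and Cacnb4 with 2 each. Of those over 300 kb on autosomes, 6 of 18 did. Glutamate and GABA receptor genes had one at 4 of 44 (9.09%), the glutamate receptor genes Grm7, Gria3, Gria4 and Grm5, with no peak wider than 300 bp. Of their autosomal members over 300 kb, 3 of 15 did (20.0%), against 31.0% of all such genes.

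Genes of X-inactivation itself and of X-linked families gave small counts. The X-inactivation centre had 0 of 9 members with a peak, beside 13.6% of X coding genes. This allows a share of up to 33.3% if members count separately, but they lie close together. Genes that escape inactivation had 4 of 16 (25%, 10.2% to 49.5%), an interval that includes 13.6%. These were the midline gene Mid1 with 3 peaks and Firre, Kdm6a and Shroom4 with 1 each. Their median length was 178 kb, against 33.3 kb for the class. Of all X genes of 100 to 300 kb, 48.3% had a peak in their span. Testis and placenta families, 107 of whose 152 members are X-linked, had 5 (3.29%). All 5 are on X, where 13.6% of coding genes of any length had a peak. Of these, Tex11 with 4 and Mageb18 with 1 span 221 and 481 kb, whereas the class has a median of 6.44 kb.

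Clustered and imprinted autosomal families had shares between 0% and 7.14%. Olfactory receptors, single-exon genes in large arrays, had a peak at 11 of 1105 (0.995%) and vomeronasal receptors at 4 of 350 (1.14%). Both families are short, with medians of 0.951 and 0.960 kb, and among autosomal members under 10 kb the shares were 0.929% (0.505% to 1.70%) and 1.28% (0.435% to 3.69%), beside 0.552% of such coding genes other than Hox genes. KRAB zinc-finger and other Zfp genes had one at 13 of 424 (3.07%). Among autosomal members of 10 to 30 kb, 7 of 264 did (2.65%, 1.29% to 5.37%), beside 57 of 6096 coding genes other than Hox genes (0.935%). At 100 to 300 kb the order was reversed, 1 of 17 (5.88%) beside 168 of 1779 (9.44%). These counts were not tested. The 57 clustered protocadherins had 0, which allows up to 5.26% if members count separately. They lie side by side in clusters and are not separate sites, so this limit is too low. Within 50 kb, 21 of the 57 had a peak, beside 7.84% of all coding genes. Neighbours there can share a peak, and these counts were not matched for length. Imprinted genes had 4 of 56 (7.14%, 2.81% to 17.0%), an interval that includes 3.38%. Grb10, a growth-restraining adaptor gene, had a peak of 1050 bp. Snrpn, of the Prader-Willi region, had 2 of up to 750 bp. Sgce and Kcnk9 had 1 each of 300 bp. Neural stem cell genes such as Sox2 and Nes had 0 of 23, which allows up to 13%, and housekeeping genes 0 of 20, which allows up to 15%. Of 14 neuron genes only Snap25, a vesicle fusion gene, had one. Smchd1 itself had none within 50 kb.

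Broad domains add a second view of X. They come from a separate deposited list of 11 regions, made with the caller EDD going by the name of the list, and the authors' score of each is on a scale not stated. Inside the 8 domains of X lay 456 of the 549 peaks at 4.10 per Mb (95% exact Poisson interval 3.73 to 4.49), and outside them 93 at 1.65 per Mb (1.33 to 2.02). Both sides exceeded the 0.685 per Mb of the autosomes. Inside, 62.9% of peaks were in runs, and outside 36.6%. The share in coding genes went the other way, 32.0% inside and 45.2% outside. Yet 98 of 532 coding genes touching a domain (18.4%) had a peak within 5 kb, and 33 of 431 others (7.66%). Of genes over 100 kb, 49 of 70 had a peak in their span when they touched a domain, and 16 of 43 when they did not. If both lists came from the same reads, they are not independent.

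**Figure D4:**
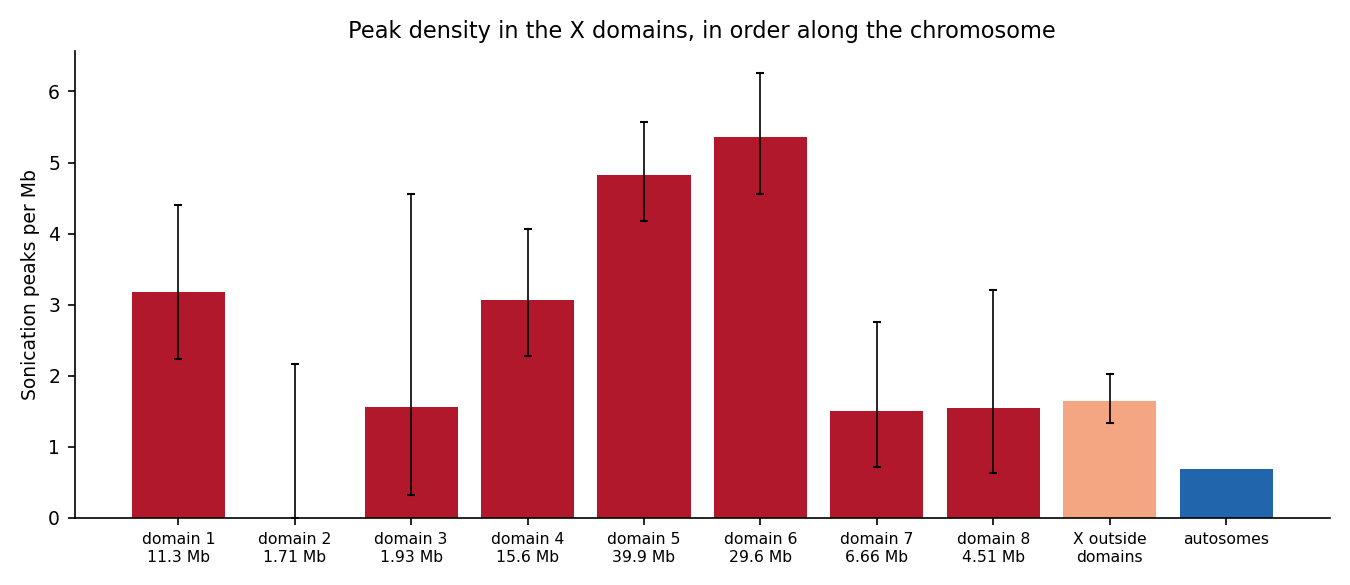
Sonication peaks per Mb in the 8 X domains in order along the chromosome, in the rest of X and on the autosomes; bars start at 0, and error bars on the X values are 95% exact Poisson intervals. Domains 5 and 6 stand highest at 4.83 and 5.36 peaks per Mb, domain 2 holds no peak, and domains 3, 7 and 8 are near the 1.65 per Mb found outside domains.

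The domains were not alike. The longest pair, of 39.9 and 29.6 Mb, held 193 and 159 peaks, or 4.83 (4.18 to 5.57) and 5.36 (4.56 to 6.26) per Mb. In the second of them 77.4% of peaks were in runs and the median gap was 90.6 kb. Domains of 11.3 and 15.6 Mb had 3.18 and 3.07 per Mb with median gaps of 235 and 217 kb. Smaller ones of 1.93, 6.66 and 4.51 Mb had 1.56, 1.5 and 1.55 per Mb, close to the 1.65 of X outside domains. The domain from 25300001 to 27005000, of 1.71 Mb, held 0 peaks (interval 0 to 2.16 per Mb) and 10 coding genes, 9 with predicted names besides Slx, a multicopy gene of spermatids. The domains on chromosomes 12, 13 and Y held no peak either. Those on 12 and 13 held 7 and 12 coding genes, of which 7 and 10 carry predicted names.

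Outside the domains, peaks still occurred at both ends of X. The first 10.5 Mb had 18 at 1.72 per Mb, the last 18.8 Mb had 39 at 2.07, and the 13.6 Mb from 133760001 to 147345000 had 32 at 2.36. The stretches from 27005001 to 34815000 and from 124630001 to 127105000, of 7.81 and 2.48 Mb, had 0.

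Most autosomal peaks above 900 bp were also in the MNase list, and few narrow ones were. Of 2196 sonication peaks, 49 (2.23%) overlapped an MNase peak by at least 1 bp, which is 47 of the 2840 MNase peaks (1.65%). All 49 were autosomal. The X lists, of 549 and 10 peaks, shared 0. By width, 3 of 1144 autosomal peaks of 300 bp overlapped (0.262%), 2 of 319 of 450 bp (0.627%) and 8 of 116 of 600 bp (6.90%). At 750 to 900 bp the count was 15 of 44 (34.1%, 21.9% to 48.9%), and above 900 bp 21 of 23 (91.3%, 73.2% to 97.6%). The rise was also present with the Hox clusters left out, to 25.6% of 39 and 80.0% of 10 peaks in the widest classes. A wider peak also has more bases that can overlap. Within 5 kb of a coding gene's end lay 6.82% of the autosomal 300 bp peaks and 87.0% of those above 900 bp.

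**Figure D5:**
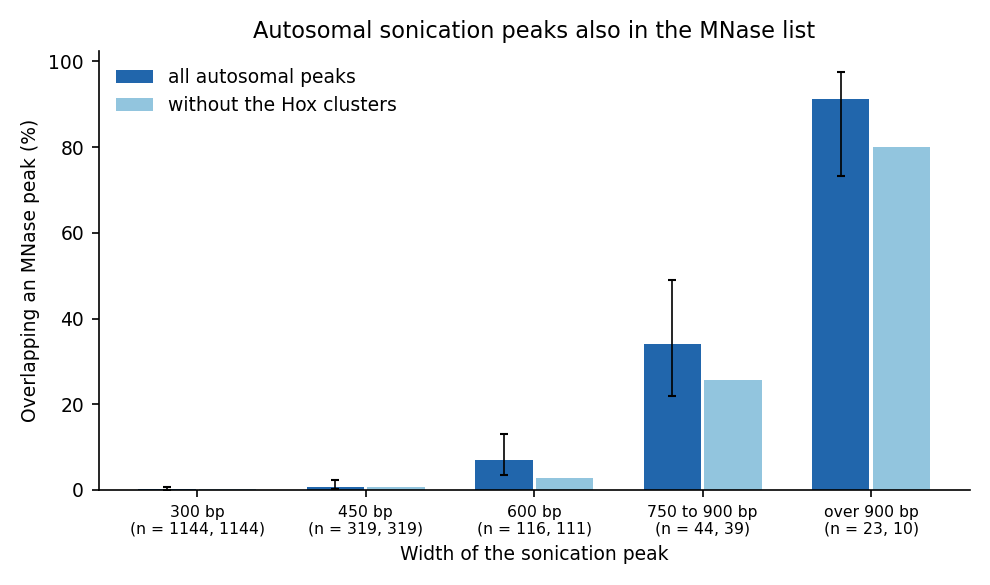
Share of autosomal sonication peaks that overlap an MNase peak (percent) in 5 classes of width, for all peaks (dark, with 95% Wilson intervals) and without the Hox clusters (light); n is given for both under each class. The share climbs from 0.262% at 300 bp to 91.3% above 900 bp, and to 80.0% without the Hox clusters.

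The shared sites outside the Hox clusters numbered 26. They included sites in or near Pcsk2, Irx2, Msx1, Nr2f2, Xkr4, Grb10, Tfap2a, Evx2, Lrfn5 and Cacng2, a gene of AMPA receptor trafficking. Further sites lay in or near Zpbp, Celf4, Ralyl, Kctd16, Tfap2b and Zfp993. Those nearest to Kcnk9, Gm40035 and Frmd4a lay 20037, 16855 and 52850 bp away. Nr2f2 was also the nearest coding gene to peaks 16496 and 385496 bp away. Of the 4 nearest to Snrpn, a pair of 750 bp lay in the gene, another of 750 bp lay 41824 bp away and 1 of 600 bp lay 172174 bp away. The median width of shared peaks was 900 bp, against 300 bp for autosomal peaks not shared, and 46 of the 49 were wider than 300 bp. In 36 of 49 cases the MNase peak was the wider. Of the X peaks, 40 had 750 or 900 bp and 2 had more, and none of the 42 was in the MNase list. That list has only 10 peaks on X, against 2828 on the autosomes, so X peaks of any width had little to overlap. The X peaks above 900 bp were both nearest to Dmd, one of 2250 bp inside it from 83601601 to 83603850 and one of 1050 bp 406314 bp away from it. The autosomal peaks above 900 bp that were not shared lay 9687 bp from Zfp982 (1500 bp) and in Trim35 (1050 bp).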

How the data were processed

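The authors deposited 1 peak list for each experiment and 1 list of broad domains. Per the file headers, the peak lists are annotated probe reports whose value column is empty, so positions in bp alone were used; starts lie on a grid of 150 bp. Per the submitters' processing notes, bcl2fastq, Bowtie 0.12.9, MACS2 and mm10 were used, with no role or order; the MNase list names SeqMonk peaks. The authors' deposited score per domain is on an unstated scale. Peak positions and widths depend on the caller's window.

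Genes came from RefSeq spans of GRCm38.p6, the assembly of mm10: 49599 records, 21775 of them coding, after 340 in the first 3 Mb of a chromosome were left out. Chromosome length ran from 3 Mb to the last gene or peak. All lists, classes and tests were chosen with earlier results of these data known. Genes to name were those at the 20 widest peaks, with 3 or more peaks, at the 10 largest runs, among the 5 longest of X and of the autosomes, up to 6 members of each class, and at up to 20 shared peaks; where these were many, examples are given, and some are not reported here. Others (Arhgap6, 3830403N18Rik, Tenm1, Pcdh11x, Pcdh8, Trim35, Slx, Ccnh, Gm21425, genes of the fullest windows, at promoters and at the remaining shared peaks) were named after their values were seen. Both peak lists were compared by Fisher's exact test (scipy 1.17.1), with Benjamini-Hochberg adjustment over 3 comparisons, and intervals of a difference combine the Wilson limits of both shares. Counting functions were tested on simulated data. Depth is unknown.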

Additional observations from a re-analysis of the deposited data

How the results depend on the processing

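No paired analysis was possible because the lists give no value per library, and for the same reason no library could be left out in turn. The X share of peaks (549 of 2195 off Y) was 18.7% with runs counted as 1 and 31.4% for peaks wider than 300 bp. The share of peaks in runs, 28.5%, was 18.2% at 50 kb, 43.4% at 200 kb and 16.7% for the wider peaks. Of coding genes, 736 had a peak within 5 kb, 1707 within 50 kb and 295 a wider peak. Members of all classes with a peak, 125 with genes in several classes counted in each, came to 364 within 50 kb and 70 at wider peaks. The share of X peaks in domains, 83.1%, was 78.8% with runs counted as 1. The share overlapping an MNase peak, 2.23%, was 6.28% among wider peaks and 1.20% without the Hox clusters. The 3 comparisons with the MNase list kept direction and call under every alternative run, of which those without the Hox clusters and with wider peaks only were chosen after seeing the data, as was leaving out 3 long X genes. Widths move in steps of 150 bp, and unknown depth limits every zero.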

Other observations

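The sonication libraries were all from female cells, and the list holds 1 peak on Y, of 600 bp from 13126051 to 13126650, 36836 bp from the predicted gene Gm21425. A broad domain of 0.165 Mb on Y, from 2310001 to 2475000, held no peak and no coding gene. Whether these positions are repeated elsewhere in the genome was not tested.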
